A study of Mus musculus with 6 samples.

Results

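The receptor genes Olfr763 to Olfr826 form a block on mouse chromosome 10. The rule that chose them used the symbol alone, Olfr followed by a number in that range, and no expression value. It was set with earlier results of these data known. The rule found 55 genes, and the other receptor rows named Olfr and a number, 1046 of 1101 in all, served for comparison. All 55 genes were annotated on chromosome 10 in RefSeq (GRCm38.p6). Their order along the chromosome was the order of their numbers, 26 on the plus strand and 29 on the minus strand. The range holds 64 numbers, and RefSeq lists the 9 without a row as pseudogenes. The next numbers with a row outside the range were Olfr761, on chromosome 17, at a mean of 0.00811 FPKM, and Olfr827, on chromosome 10, at 2.55 FPKM. Olfr9 and Olfr247, numbered outside the range, are also annotated near the block on chromosome 10. They averaged 0.283 and 0 FPKM and count among the other receptors.

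Olfactory receptors are G protein-coupled receptors that bind odorants in the cilia of olfactory sensory neurons. A mature neuron typically expresses a single receptor gene, so the level of a receptor in whole tissue reflects both how many neurons chose it and how much RNA each of them holds. In these bulk samples fewer neurons and less RNA per neuron cannot be told apart. Receptor genes lie in clusters that arose by local duplication. The MOR names sort them into subfamilies by the likeness of their proteins. The transcription of a chosen receptor depends on Lhx2, Ldb1 and Ebf factors that bind receptor promoters and distant enhancers.

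The libraries were made from whole olfactory mucosa of wild-type C57BL/6 mice at postnatal day 11 in which 1 naris had been closed. The 3 mice each gave 1 library from the closed side and 1 from the open side, 6 libraries in all. The comparison asks which transcripts differ with the airflow and odor input of a side. No unoperated mouse is among the samples, and the length of closure is not given in the sources used here. Levels are FPKM, that is fragments per length of transcript and per depth of the library, as deposited. Sequencing gave 24958172 to 39595257 reads on the closed side and 33945264 to 43584803 reads on the open side, with 93.28% to 96.99% aligned over the 6 libraries. Omp, the marker of mature olfactory sensory neurons, stood at 1916, 2126 and 2176 FPKM on the closed side and at 2212, 1414 and 1652 FPKM on the open side of mice 1, 2 and 3, so the labelled tissue was present in every library.

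Sequence around the coding start is shown for the highest receptors of the block, Olfr812 at chr10:129842991-129843290 on the minus strand and Olfr791 at chr10:129525979-129526278 on the plus strand. Each run holds 250 bases before and 50 bases after the annotated start in RefSeq (GRCm38.p6), 5′ to 3′. Capitals mark the start codon and any match to the searched motifs.
Olfr812: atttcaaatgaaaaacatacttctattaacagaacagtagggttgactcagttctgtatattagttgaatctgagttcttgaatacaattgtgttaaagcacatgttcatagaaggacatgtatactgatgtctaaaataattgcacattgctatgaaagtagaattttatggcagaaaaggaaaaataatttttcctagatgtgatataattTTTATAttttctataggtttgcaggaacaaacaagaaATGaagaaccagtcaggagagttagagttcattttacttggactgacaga
Olfr791: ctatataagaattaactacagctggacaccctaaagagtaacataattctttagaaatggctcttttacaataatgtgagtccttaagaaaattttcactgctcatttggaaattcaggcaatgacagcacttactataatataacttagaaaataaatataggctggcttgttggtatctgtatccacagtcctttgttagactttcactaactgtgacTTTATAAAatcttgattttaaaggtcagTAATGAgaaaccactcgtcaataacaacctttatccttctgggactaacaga
In 44 of the 45 windows found for the block the annotated start was the start codon, so these windows show the letters before the coding sequence and not a mapped transcription start. That held for 636 of 886 windows of other receptors, so shares are also given over these windows alone. The motifs were read on both strands. The letters TATAAA occurred in 25 of the 45 block windows (55.56%), against 40.52% of 886 other receptor windows and 13.62% of all 32851 windows. Over windows at a start codon it occurred in 56.82% of block windows, against 42.92% of other receptor windows. The homeodomain-type letters TAATTA occurred in 9 of the 45 block windows (20%), against 18.51% of other receptor windows and 5.291% of all windows, and at start codons in 20.45% of block windows, against 18.55% of other receptor windows. The related letters TAATGA occurred in 10 block windows (22.22%), against 29.35% of other receptor windows and 9.777% of all windows, and at start codons in 20.45%, against 27.36% of other receptor windows. The match in Olfr791 overlaps its start codon. The Ebf-type letters CCCNNGGG occurred in 0 of the 45 block windows, against 3.16% of other receptor windows and 13.67% of all windows, and at start codons in 0 of 44, against 1.415% of other receptor windows. These matches describe letters in a window and not bound sites.

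All 55 receptors of the block were detected, 53 of them in every library. On the closed side 55, 54 and 55 of them were above 0 FPKM in mice 1, 2 and 3, and on the open side 55, 53 and 55. At 1 FPKM or more stood 36, 34 and 39 of them on the closed side and 36, 32 and 36 on the open side. Averaged over the 6 libraries, 1 FPKM was reached by 37 block receptors (67.27%), against 693 other receptors (66.25%). No block receptor was listed at 0 in all libraries. Among the 1046 other receptors 7 were, with Olfr247 near the block among them, so few that 0 of 55 does not set the block apart.

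The median block receptor stood at 1.85 FPKM over the 6 libraries, against 1.44 FPKM for the other receptors. The middle range, between the quartiles, was 0.664 to 2.77 FPKM in the block, against 0.772 to 2.43 FPKM elsewhere. The spread of log2 levels was also close, with an SD of 1.30 over block receptors and 1.26 over other receptors. The highest level in the block was 5.45 FPKM, against 18.55 FPKM elsewhere, and 0 of its members reached 10 FPKM, against 8 other receptors (0.765%), a share so small that 0 of 55 does not set the block apart. These are descriptions of 1 set of libraries, and the genes are not independent replicates.

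**Figure D1:**
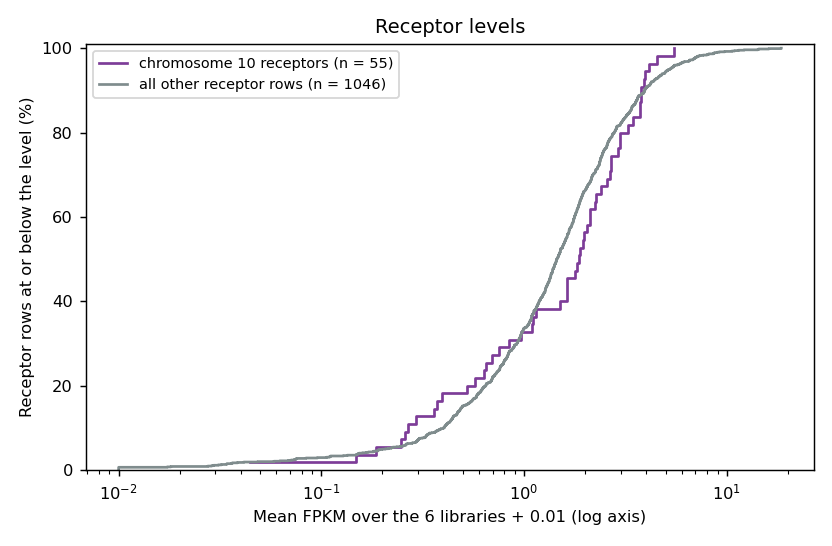
Cumulative distribution of receptor levels, with the mean FPKM over the 6 libraries plus 0.01 on a log axis and the percent of receptor rows at or below that level on the vertical axis. The chromosome 10 receptors (n = 55) end at 5.45 FPKM, and all other receptor rows (n = 1046) run on to 18.55 FPKM.

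The block held about the same portion of receptor transcript on both sides. Its share of the summed receptor FPKM was 5.20%, 4.99% and 4.85% in the closed libraries of mice 1, 2 and 3, and 4.62%, 4.77% and 5.27% on the open side. The sides overlapped, with means of 5.01% ± 0.17 on the closed side and 4.89% ± 0.34 on the open side (SD, n = 3 each). In FPKM the 55 levels summed to 109.9, 90.6 and 129.2 on the closed side and to 99.6, 79.4 and 120.1 on the open side. Mouse 2 had the lowest sum on each side and mouse 3 the highest. The sum over all receptors had the same order of mice on each side, at 2115, 1816 and 2666 FPKM closed and 2154, 1667 and 2281 FPKM open.

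The highest member was Olfr812, a MOR110 receptor that ranked 47th among all receptors. It had 5.94, 4.56 and 4.86 FPKM in the closed libraries of mice 1, 2 and 3, and 4.74, 6.04 and 6.57 FPKM on the open side. The sides overlapped, with closed mouse 2 the lowest and open mouse 3 the highest of the 6. Olfr791, of subfamily MOR114, had 4.34, 4.19 and 5.84 FPKM on the closed side and 3.80, 4.31 and 4.48 FPKM on the open side. Closed mouse 3 alone stood above the other 5 libraries. The next 6 were Olfr821, Olfr820, Olfr808, Olfr801, Olfr799 and Olfr786, with means between 4.11 and 3.72 FPKM.

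Averaged over both sides, the first 3 of these were close to each other. Olfr821, the only MOR109 receptor of the block, averaged 4.28 ± 0.52 FPKM on the closed side and 3.95 ± 1.32 FPKM on the open side (SD, n = 3 each). Olfr820, its only MOR116 receptor, averaged 4.63 ± 1.34 FPKM on the closed side and 3.23 ± 1.16 FPKM on the open side (SD, n = 3 each). Olfr808, of MOR112, averaged 3.83 ± 0.19 FPKM on the closed side and 3.94 ± 1.04 FPKM on the open side (SD, n = 3 each). Between the sides, Olfr820 had log2 differences of 0.44, 0.68 and 0.47 in mice 1, 2 and 3, higher on the closed side in each, with an unadjusted limma p of 0.1333 without the mouse and 0.01262 with the mouse as a block, and an adjusted p of 1 in both fits. Over the 6 libraries the 3 receptors averaged 4.11, 3.93 and 3.88 FPKM, a range under 1 SD of each on the open side. Together the 8 highest members made up 31.59% of the summed level of the block. By the closed libraries alone, 7 of these 8 were again among the 8 highest, and by the open libraries alone also 7.

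**Figure D2:**
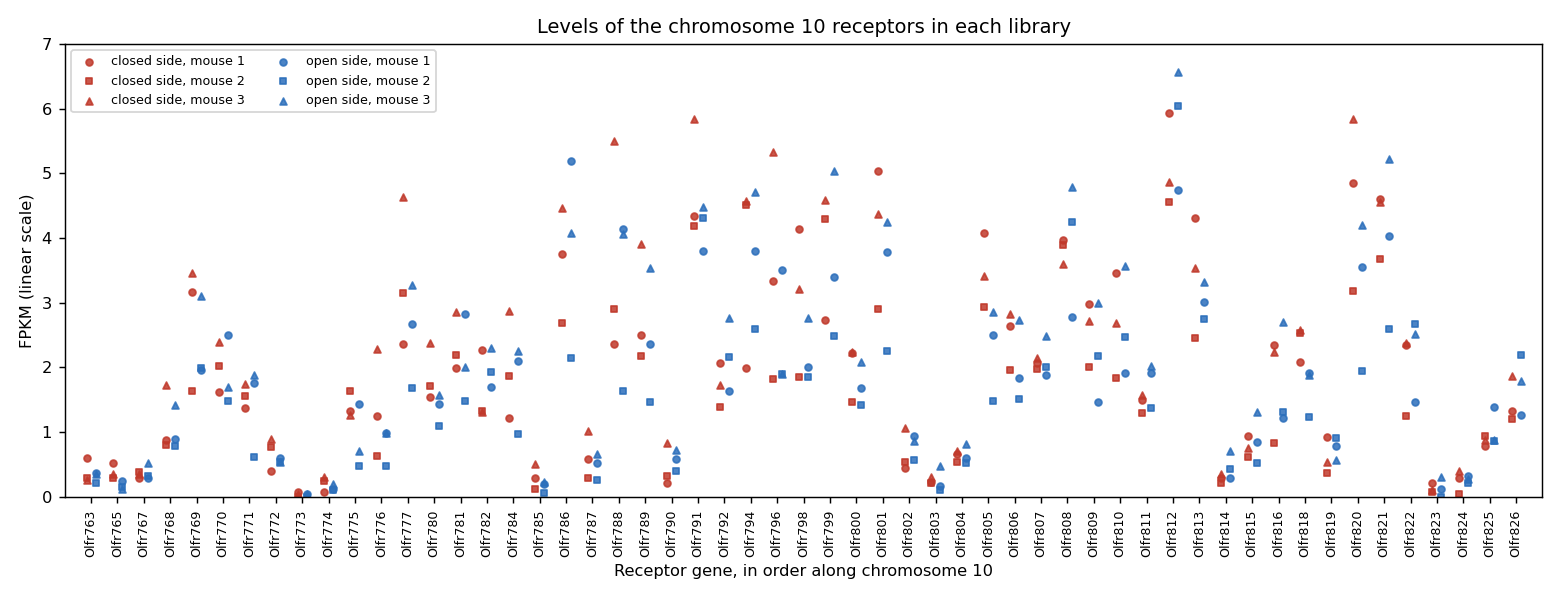
FPKM (linear axis) of the 55 receptors in their order along chromosome 10, with 3 closed libraries at the left and 3 open libraries at the right of each position and a marker shape per mouse. Olfr812 is the highest of the block in 4 of the 6 libraries, low and high receptors lie side by side, and the colours of the sides overlap for nearly every gene.

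At the low end, Olfr773 of MOR114 was close to the detection limit. It had 0.0739, 0 and 0.0510 FPKM on the closed side and 0.0410, 0 and 0.0394 FPKM on the open side. These levels stand for at most 1 fragment in any library, and the 0 fragments of closed mouse 2 and of open mouse 2 allow up to 0.126 and 0.158 FPKM, the value of 3 fragments there. The exact Poisson 95% intervals, 2-sided, end at 0.155 and 0.195 FPKM. Olfr823, a MOR210 receptor, had 0.218, 0.0828 and 0.1004 FPKM on the closed side and 0.121, 0 and 0.310 FPKM on the open side. Its range on the open side spans that on the closed side. Olfr774 and Olfr785, both of MOR111, averaged 0.176 and 0.237 FPKM over the 6 libraries. The lowest number, Olfr763 of MOR269, averaged 0.383 ± 0.185 FPKM on the closed side and 0.314 ± 0.088 FPKM on the open side (SD, n = 3 each). The highest number, Olfr826 of MOR210, averaged 1.47 ± 0.35 FPKM on the closed side and 1.75 ± 0.47 FPKM on the open side (SD, n = 3 each).

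The fragments behind these levels were few. FPKM of a gene within a library rises in steps of 1 fragment. With RefSeq lengths the steps gave whole fragment numbers, within 0.05 in all 6 libraries, for 53 of 55 block receptors. For the remaining block receptors, Olfr784 and Olfr787, a length was fitted so that the numbers came out whole. Of 846 other receptors tried, with RefSeq lengths alone and without the longest genes, 822 were whole (97.16%). The 55 genes shared 1500, 2177 and 2558 fragments in the closed libraries of mice 1, 2 and 3, and 2450, 1520 and 3077 fragments on the open side. The median block receptor rested on 27, 38 and 44 fragments on the closed side and on 41, 27 and 51 fragments on the open side. For Olfr812 the 80 fragments of closed mouse 1 give an exact Poisson 95% interval of 4.71 to 7.39 FPKM, and the 166 fragments of open mouse 3 give 5.61 to 7.65 FPKM. Such intervals cover counting error only, since amplified reads without molecular identifiers are not independent molecules.

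The libraries of a side come from different mice, so their spread holds differences between animals as well as counting error. Among the 51 block receptors with a mean of at least 5 fragments, the variance within sides was a median of 3.14 times the counting variance, and it exceeded the counting variance in 44 of them. Among 774 other receptors the median was 2.78 times, and 679 exceeded it. With libraries scaled to the same receptor sum the medians were 2.06 in the block and 1.73 elsewhere. Some members varied little. Olfr807, the only MOR117 receptor of the block, had 2.07, 1.98 and 2.14 FPKM on the closed side and 1.89, 2.004 and 2.48 FPKM on the open side, with a variance within sides of 0.608 times the counting variance. Over the 3 open libraries the coefficient of variation was smallest in Olfr791 (8.38%), Olfr813 (9.44%) and Olfr807 (14.9%), and largest in Olfr775 (57.4%), Olfr771 (49.2%) and Olfr816 (47.6%), among members of at least 1 FPKM. Its median over such members was 24.75% on the closed side and 31.21% on the open side, against 27.99% and 24.62% on the closed and open sides for other receptors of that level.

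**Figure D3:**
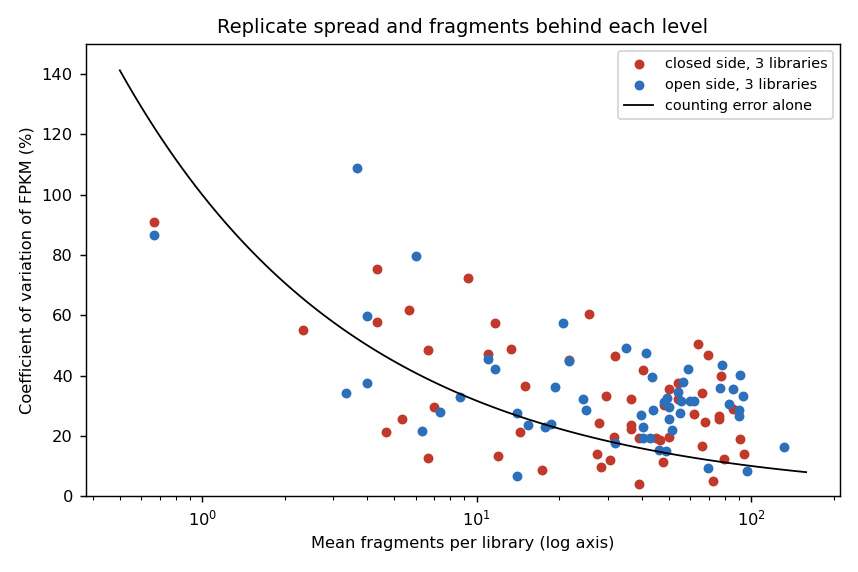
Coefficient of variation of FPKM over the 3 libraries of a side (vertical axis, percent) against the mean fragments per library (log axis) for the 55 receptors, closed and open sides in separate colours, with a line for counting error alone. The variance within sides exceeded counting error in 44 of the 51 receptors with at least 5 fragments, and Olfr807, at 28 to 63 fragments a library, lies under the line on the closed side.

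Subfamilies divided the block unevenly. MOR114, with 13 genes, made up 27.05% of the summed level, MOR110, with 9 genes, 21.31%, and MOR111, with 10 genes, 13.37%. MOR108 with 4 genes followed at 9.742%, MOR113 with 5 genes at 7.405%, and MOR210 with 4 genes at 2.824%. Per gene, the median level was 2.51 FPKM in MOR108, 2.04 in MOR110, 1.95 in MOR114, 1.78 in MOR113, 0.919 in MOR111 and 0.606 in MOR210. All 4 MOR108 genes reached 1 FPKM, whereas 5 of 10 MOR111 genes and 1 of 4 MOR210 genes did. Gene numbers per subfamily are small, and no test was made between subfamilies.

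The subfamilies did not move alike from library to library. MOR111 summed to 12.8, 11.4 and 20.6 FPKM in the closed libraries of mice 1, 2 and 3, and to 16.1, 7.31 and 15.8 FPKM on the open side. The open library of mouse 2 was the lowest of the 6, at 0.459 times the mean of the other open libraries. In MOR210 the sums were 2.61, 2.27 and 3.26 FPKM on the closed side and 3.09, 3.27 and 3.25 FPKM on the open side. Here the open library of mouse 2 stood at 1.03 times the mean of the other open libraries. That ratio was 0.692 in MOR114, 0.740 in MOR110, 0.894 in MOR113 and 0.896 in MOR108. For single members of at least 1 FPKM it ran from 0.339 to 1.44 with a median of 0.682, against a median of 0.744 over 693 other receptors. This library was picked out after its values were seen. It also had the lowest Omp level and the lowest receptor sum, whose part in these ratios was not tested. As a share of the receptor sum, MOR210 stood at 0.124%, 0.125% and 0.122% on the closed side and at 0.143%, 0.196% and 0.143% on the open side. The 3 open values lie above the 3 closed values, a contrast noticed in the data and not tested. Most of the MOR210 sum came from Olfr825 and Olfr826, at means of 0.955 and 1.61 FPKM. Of their stretches of 51 bases, the length of a read, 57.5% and 58.86% were shared with another transcript. In Olfr823 and Olfr824 the share was 66.93% each. How often other receptor groups of this size separate by side was not counted.

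**Figure D4:**
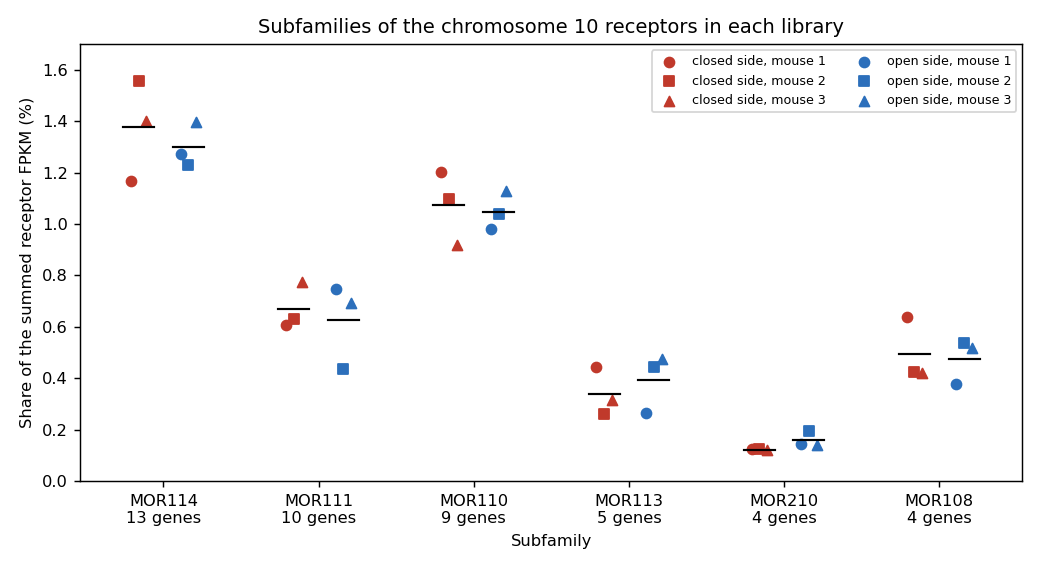
Share of the summed receptor FPKM (vertical axis, percent) held by each subfamily with at least 4 genes in the block, closed libraries at the left and open libraries at the right, a marker shape per mouse and a bar at the mean of each side. The sides overlap for MOR114, MOR111, MOR110, MOR113 and MOR108, and the 3 closed values of MOR210 lie under its 3 open values.

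Genes next to each other differed somewhat less in level than pairs drawn from anywhere in the block. The median absolute difference in log2 level was 0.97 over the 54 neighbouring pairs, against 1.17 over all 1485 pairs. Of the neighbouring pairs, 24 belonged to the same subfamily. Position, subfamily and shared sequence go together here, and their parts were not tested.

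Closely related members limit how far reads can be assigned. Coding sequences (the longest open reading frame, GENCODE M21) were a median of 73.48% identical within a subfamily and 66.56% between subfamilies, and 8 pairs reached 95%. The closest pairs were Olfr772 and Olfr773 (99.25%), Olfr823 and Olfr824 (98.73%), Olfr765 and Olfr767 (98.17%), and Olfr814 and Olfr815 (97.79%). Over 50% of the 51-base words, the length of a read, were shared with another transcript in 9 members, among them Olfr763, Olfr782, Olfr819 and Olfr826. Such a transcript is any under another gene name, on either strand, and need not be of the block. The nearest member was only 68.17% identical to Olfr763 and 61.58% to Olfr819. No word was shared in 12 members, which include Olfr791, Olfr821, Olfr820 and Olfr808. The values of members with shared words may be uncertain, since the authors' treatment of reads with several matches is not given in the sources used here. How many reads matched several places was not measured. Whether a transcript that shares words lies at the same locus was not examined either.

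Olfr772 and Olfr773, the most alike pair, did not stand at the same level. Olfr772 rested on 87 fragments over the 6 libraries and averaged 0.624 FPKM, whereas Olfr773 rested on 4 fragments and averaged 0.0342 FPKM. Other close pairs stood nearer to each other, with Olfr775 and Olfr776 (96.06% identical) at means of 1.14 and 1.10 FPKM and Olfr765 and Olfr767 at 0.284 and 0.361 FPKM. Olfr772 and Olfr773 each share 78.44% of their 51-base words with another transcript. Their sequences around the annotated start, which is the start codon in Olfr773 but not in Olfr772, are shown because the genes differ in level while their coding sequences barely differ, Olfr772 at chr10:129175005-129175304 and Olfr773 at chr10:129187370-129187669, both on the minus strand and from RefSeq (GRCm38.p6).
Olfr772: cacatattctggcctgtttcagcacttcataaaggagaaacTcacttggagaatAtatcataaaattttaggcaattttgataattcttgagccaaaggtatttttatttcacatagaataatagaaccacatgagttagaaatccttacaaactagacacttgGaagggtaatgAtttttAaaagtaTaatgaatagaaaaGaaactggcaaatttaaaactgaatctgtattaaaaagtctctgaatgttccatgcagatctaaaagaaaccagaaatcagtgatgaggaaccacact
Olfr773: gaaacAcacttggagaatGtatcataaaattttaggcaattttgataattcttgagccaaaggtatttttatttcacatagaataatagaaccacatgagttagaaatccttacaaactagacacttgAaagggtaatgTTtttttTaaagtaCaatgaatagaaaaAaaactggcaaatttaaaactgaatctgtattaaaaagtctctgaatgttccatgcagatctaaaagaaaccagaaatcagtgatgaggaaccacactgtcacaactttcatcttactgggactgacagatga
Capitals mark the bases that differ or face a gap within the aligned part, which runs from base 37 to 300 in Olfr772 and from base 1 to 265 in Olfr773. Of 264 aligned bases 257 were identical and 7 differed, with 1 further base facing a gap. Whether these letters, the sharing of reads or another difference goes with the levels was not tested.

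No receptor of the block passed the test between the closed and the open side. The test was limma on log2(FPKM + 0.1) with Benjamini-Hochberg adjustment over all 17987 rows that averaged 0.1 FPKM or more, at an adjusted p of 0.05. Olfr773 lay under that floor, so 54 members were tested. Of these, 0 were called, while 6 rows of the whole table were (0.0334%), 5 of them with lower closed values (0.0278%) and 1 with higher ones (0.00556%). Among all receptor rows 0 of 1067 were called. With libraries scaled to the same receptor sum 28 rows of the table were called lower and 1 higher, and with 1 library left out the total ran from 3 rows, without closed mouse 1, to 12 rows, without closed mouse 3, with 0 members each time. At an unadjusted limma p under 0.05 stood 2 block receptors (3.70%), against 27 other receptors (2.67%) and 315 of all rows (1.75%). Over all receptor rows that share was 2.72%. With the mouse as a block 0 members were called, against 0.0278% of all rows, and 3 had an unadjusted p under 0.05, against 2.68% of all rows.

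The 95% interval of a single member reached a median of 0.71 to each side of its estimate on the log2 scale. The median log2 difference, closed minus open, was 0.14 over the 54 members, against 0.09 over 1013 other receptors and -0.01 over all rows. It was above 0 in 35 members (64.81%), against 62.59% of other receptors and 45.30% of all rows. No test was made between the medians. Without the open library of mouse 2 the median of the block was -0.06, and without the closed library of mouse 3 it was -0.0027. In the fit without the mouse, the direction of the median thus rested on single libraries. Leaving out 1 library also leaves its mouse on 1 side only, so these medians mix side and mouse. The median of the block was 0.25 without closed mouse 2 and 0.30 without open mouse 3. With a pseudocount of 1 FPKM it was 0.082, and after scaling to the receptor sum 0.057. Within mice 1, 2 and 3 the median was above 0 in both sets, at 0.13, 0.21 and 0.09 in the block and at 0.01, 0.10 and 0.22 in other receptors. The members were above 0 in 35, 34 and 32 of 54 cases (64.81%, 62.96% and 59.26%). For other receptors these shares were 51.53%, 55.18% and 69.69%, and for all rows 59.56%, 38.43% and 46.33%.

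**Figure D5:**
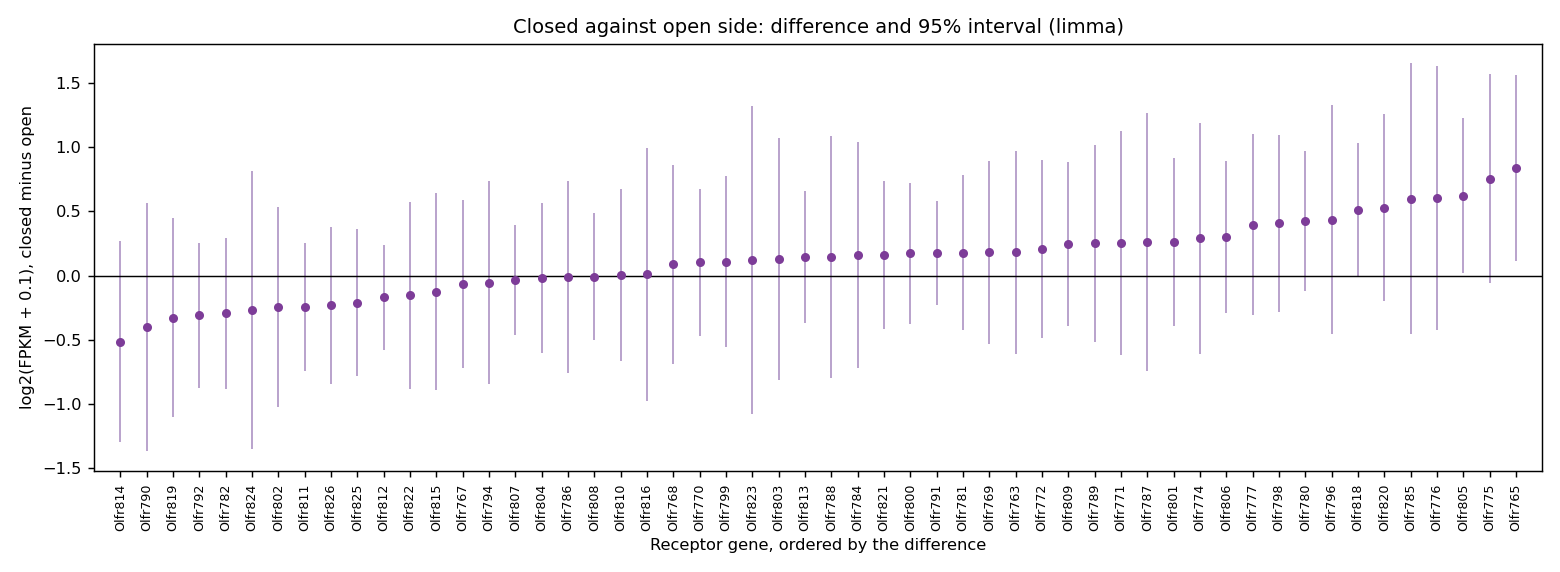
Difference in log2(FPKM + 0.1), closed minus open, for the 54 tested receptors in order of the difference, with the 95% interval of limma as a bar and a line at 0. Estimates run from -0.52 in Olfr814 to 0.84 in Olfr765, and the intervals of Olfr765 and Olfr805 alone do not span 0.

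Olfr765, for which RefSeq gives no MOR name, had the lowest p of the block in the fit without the mouse. It had 0.521, 0.297 and 0.360 FPKM on the closed side and 0.248, 0.160 and 0.119 FPKM on the open side. All 3 closed values lay above all 3 open values. The log2 difference was 0.84 with SE 0.32 (limma, unadjusted p = 0.02799, adjusted p = 1). With the mouse as a block its unadjusted limma p was 0.02495, and those of Olfr820 (0.01262) and Olfr805 (0.01904) were lower, all with an adjusted p of 1. The fragments were 7, 7 and 7 on the closed side and 6, 3 and 3 on the open side, and 32.05% of its 51-base words were shared with another transcript.

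Olfr805, of MOR110, had 4.08, 2.94 and 3.41 FPKM on the closed side and 2.505, 1.48 and 2.86 FPKM on the open side. Again the sides did not overlap, the lowest closed value being 2.94 FPKM and the highest open value 2.86 FPKM. The log2 difference was 0.62 with SE 0.26 (limma, unadjusted p = 0.04408, adjusted p = 1), and 0.35 without open mouse 2. Olfr818, also of MOR110, had 2.09, 2.54 and 2.58 FPKM on the closed side and 1.92, 1.23 and 1.88 FPKM on the open side. It was the third member without overlap, with a log2 difference of 0.51 and SE 0.23 (limma, adjusted p = 1), and 0.32 without open mouse 2. In all, 3 of 54 members (5.56%) had every closed value above every open value, against 1.52% of all rows and 3.28% of receptor rows. In the other direction there were 0 members, against 2.56% of all rows and 1.41% of receptor rows.

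Olfr775 and Olfr780 followed with log2 differences of 0.75 and 0.42 (limma, adjusted p = 1 for each) and overlapping sides. Olfr775, of MOR111, had 1.32, 1.63 and 1.27 FPKM on the closed side and 1.43, 0.473 and 0.706 FPKM on the open side. Its open libraries spread from 0.473 to 1.43 FPKM while the closed ones stayed between 1.27 and 1.63 FPKM. The log2 difference of Olfr775 was 0.43 without open mouse 2 and 1.14 without open mouse 1. Olfr780, of MOR114, had 1.55, 1.72 and 2.39 FPKM on the closed side and 1.43, 1.10 and 1.57 FPKM on the open side. In 3 of 3 mice its closed value was the higher one, and its log2 difference was 0.25 without closed mouse 3. A higher closed value in 3 of 3 mice was seen in 13 members (24.07%), against 17.77% of other receptors and 7.73% of all rows.

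Toward lower values on the closed side, Olfr814 of MOR113 had 0.297, 0.211 and 0.358 FPKM on the closed side and 0.288, 0.424 and 0.712 FPKM on the open side. Its log2 difference was -0.52 with SE 0.34 (limma, adjusted p = 1), and -0.23 without open mouse 3. Olfr792, Olfr782, Olfr811 and Olfr819 had log2 differences of -0.31, -0.29, -0.25 and -0.33 (limma, adjusted p = 1 for each). Their sides overlapped, and with 1 library left out these differences shrank to as little as -0.13, -0.17, -0.15 and -0.06, without open mouse 3, closed mouse 3, open mouse 3 and closed mouse 2. Olfr811, of MOR110, was the only member whose closed value was the lower one in 3 of 3 mice, with 1.504, 1.30 and 1.58 FPKM on the closed side and 1.91, 1.38 and 2.02 FPKM on the open side. Such a row made up 1.852% of the members, against 6.12% of other receptors and 10.29% of all rows. Values of Olfr782 and Olfr819 may be uncertain, since 85.59% and 75.36% of their 51-base words were shared with other transcripts. The shares were 42.51% in Olfr814, 36.81% in Olfr805 and 34.53% in Olfr775, whose values may also be uncertain, to an extent that was not measured.

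Genes that act on receptor choice and trafficking were also not called. Of 20 listed genes, 0 passed the test in each direction and 15 had a difference above 0, with a median log2 difference of 0.09, against -0.01 over all rows. Lhx2, the homeodomain factor of receptor promoters, averaged 183.6 ± 19.5 FPKM on the closed side and 166.8 ± 24.8 FPKM on the open side (SD, n = 3 each). Rtp1, which carries receptors to the cell surface, averaged 224.6 ± 37.7 FPKM on the closed side and 190.0 ± 33.2 FPKM on the open side (SD, n = 3 each).

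Markers of cell types varied between libraries as well. The 14 mature sensory neuron markers summed to 6769, 6173 and 7491 FPKM on the closed side and to 7019, 4866 and 5852 FPKM on the open side, with 11 differences above 0. The 8 immature neuron markers had 7 differences above 0, the 8 sustentacular markers 0, the 7 basal and dividing cell markers 4, and the 6 immune markers 3, and 0 genes of these lists were called. Summed levels of immature neuron markers ran from 2262 to 2657 FPKM on the closed side and from 2082 to 2881 FPKM on the open side, those of basal and dividing cell markers from 117.5 to 160.4 and from 123.2 to 151.1 FPKM, and those of immune markers from 358.4 to 913.6 and from 376.4 to 698.6 FPKM. The 8 sustentacular markers summed to 4881, 4886 and 4947 FPKM on the closed side and to 5036, 6585 and 5075 FPKM on the open side. The 7 gland and secretory markers with a row summed to 347.6, 158.8 and 315.3 FPKM on the closed side and to 1498, 1943 and 1781 FPKM on the open side, without overlap, with 1 difference above 0 and 0 called. The lower sums came from Obp1a, Lcn11, Bpifb9a and Bpifb9b, which encode secreted proteins, with log2 differences of -4.35, -4.15, -6.26 and -6.66 (limma, adjusted p of 0.278 or more). Sox9, Aqp5 and Muc5b of the same list had differences of -0.18, -0.12 and 0.0058, and Aqp5, a water channel of gland cells, averaged 124.2 ± 2.6 FPKM on the closed side and 137.1 ± 28.8 FPKM on the open side (SD, n = 3 each). None of these markers was at 0 in all libraries. The open library of mouse 2 was lowest in mature neuron markers and in the sum over the block and highest in sustentacular markers. The part of these cell types in the values of the block was not tested.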

How the data were processed

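Whole olfactory mucosa of 3 mice gave 6 RNA libraries, 1 from the closed and 1 from the open side of each mouse. Per the labels' protocols, the total RNA came from a Qiagen RNeasy micro preparation and went into TruSeq libraries, read in pairs of 51 bases. The authors deposited FPKM per gene, with 1 column per library. The submitters' processing notes name Cufflinks and mm9, without a version. The sources used here name no aligner, annotation or use of strand. The aligned fraction of reads per library is as the authors deposited it and is printed as a percent.

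FPKM are not counts, so rows averaging 0.1 FPKM or more were compared on log2(FPKM + 0.1) with limma 3.58.1 in R 4.3.3 (lmFit, eBayes with a variance trend), closed minus open, with Benjamini-Hochberg adjustment over all rows at 0.05. The scale understates changes of low genes. A deposited sheet states that libraries of the same number are from the same mouse. Deviations from the side means were taken over all rows averaging 0.1 FPKM or more, not over receptor rows alone. They correlated at 0.14, 0.098 and 0.17 for libraries of the same mouse and between -0.12 and -0.03 for libraries of different mice. The deviations of a side sum to 0 in each row, so positive values for the same mouse force negative ones between mice. The negative values are therefore no separate evidence of the pairing. The mouse is a block only in an alternative.

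Fragments were recovered from the step of FPKM per fragment in each library, with lengths from RefSeq for 53 members and fitted lengths for Olfr784 and Olfr787. Subfamily names, chromosomes and windows came from RefSeq (GRCm38.p6) by symbol, and coordinates are of that build, not of mm9. Of the 55 members, 45 had a window. Protein sequences are not used here.

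Named members are the 8 highest and 4 lowest by mean FPKM, the 5 lowest p in each direction, the 3 largest and 3 smallest coefficients of variation on the open side, and both ends of the numbering. Members of the closest sequence pairs and the subfamilies were chosen after their values were seen. The members and all lists were chosen with earlier results of these data known. In the fit without the mouse, the p-values rest on the spread between these 3 animals a side. With the mouse as a block they rest on the spread of the differences within mice. In both fits eBayes draws the variance of a row toward the trend over all rows tested. Xist, which marks an inactive X chromosome, was at 0.063 FPKM in the closed and 0.086 FPKM in the open library of mouse 1, and at 28.8 to 64.9 FPKM in the other 4, so the mice were not of 1 sex. Alternatives were the pseudocount, the floor, the mouse block, receptor rows alone, scaling to the receptor sum, quantile normalization, no variance trend and each library left out.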

Additional observations from a re-analysis of the deposited data

How the results depend on the processing

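No member passed the test in any alternative tried. The mouse as a replicate block changed no call of a member, called 5 rows of all genes in place of 6, and left the median log2 difference of the members at 0.14. The 10 members named for their p kept their direction in all 167 values, 1 for each member and alternative setting that tested it. This was largely fixed in advance, since they were picked for low p in these same data. Several settings, the mouse block among them, also leave the log2 difference itself unchanged. None of the 10 came near the threshold (lowest limma adjusted p 0.9509), so staying under it shows no stability. Their sizes depended on the setting, with log2 differences from 0.24 to 1.02 in Olfr765, 0.40 to 1.14 in Olfr775, 0.25 to 0.55 in Olfr780, 0.35 to 0.80 in Olfr805, 0.32 to 0.62 in Olfr818, -0.54 to -0.17 in Olfr782, -0.49 to -0.13 in Olfr792, -0.41 to -0.15 in Olfr811, -0.76 to -0.19 in Olfr814 and -0.63 to -0.06 in Olfr819. The median log2 difference of the members was 0.082 with a pseudocount of 1 FPKM and 0.057 with libraries scaled to the same receptor sum, with or without the replicate block. Leaving out 1 library gave medians from -0.056 (without open replicate 2) to 0.30 (without open replicate 3), with -0.0027 without closed replicate 3 and 0.25 without closed replicate 2. Rows called over the whole table numbered 29 with scaling to the receptor sum (1 higher and 28 lower) and 14 with that scaling and the replicate block, which was added after seeing the data. That scaling moved the median of all rows to -0.12. Leaving out 1 library called 3 (without closed replicate 1) to 12 rows (without closed replicate 3). The causes of these shifts were not tested. The share of the block in the receptor sum stayed between 4.92% and 5.09% on the closed side and between 4.69% and 5.02% on the open side. The 95% intervals given above are per gene and are not the detection limit of the test, which was adjusted over 17987 rows. Olfr765 and Olfr805 had intervals that did not span 0 and were still not called. Differences larger than such an interval could therefore also go uncalled with these 6 libraries. A median of 27 to 51 fragments a member and library limits the precision, and the variance within sides was a median of 3.14 times the counting variance, so the intervals hold more than counting error.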
